A study of Homo sapiens with 5 samples.

Results

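The stathmin family comprises 4 genes, STMN1, STMN2, STMN3 and STMN4, of 19775 genes named on the Affymetrix Human Genome U133 Plus 2.0 array. Every probe set annotated to one of them was taken. There were 9 such probe sets among 54675: 3 for STMN1, 2 for STMN2, 2 for STMN3 and 2 for STMN4. One of the STMN1 probe sets, 217714_x_at, is annotated jointly to STMN1 and to the microRNA gene MIR3917, whose hairpin lies inside the STMN1 gene (GRCh38.p14, chr1:25906362-25906454 within chr1:25884179-25906880). The family was chosen by its signals and their course on these same arrays, with STMN2 and STMN4 dim at 0 h and STMN1, the member of dividing cells, bright. The members' values are therefore a description, and no p-value is given for them.

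Stathmins are small phosphoproteins that bind tubulin dimers, hold them back from polymerisation and promote the shrinking of microtubule ends. STMN1 (stathmin, also called oncoprotein 18) is cytosolic and abundant in dividing cells, where its phosphorylation allows the mitotic spindle to form. STMN2 (SCG10), STMN3 (SCLIP) and STMN4 (RB3) belong mainly to neurons, carry a palmitoylated N-terminal extension that anchors them to Golgi-derived membranes, and are known from growth cones and axons.

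The RNA came from IMR32, an established human neuroblastoma line stably carrying a doxycycline-inducible short hairpin RNA (shRNA) directed against the MEIS1b form of the homeobox gene MEIS1. There was 1 array at 0 h, before doxycycline, and 1 array at each of 24, 48, 96 and 192 h of doxycycline, so no time point had a replicate and all 5 groups share the cell line and the integrated hairpin. Later arrays of hairpin-carrying cells without doxycycline, or of doxycycline-treated cells lacking the hairpin, were not used here, so the effect of the hairpin cannot be told apart from that of doxycycline or of time in culture. Whether the cells were 1 clone is not given in the sources used here.

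The authors' deposited values were MAS5 signals on the log2 scale, brought back here to linear signals. Changes were computed as log2(signal + 4.7), an offset that understates the change of dim genes. Brightness depends on the probes as well as on the transcript, so signals were followed over time within a probe set, and a difference in brightness between probe sets is not read as a difference in transcript level. The brighter MEIS1 probe set read 1052, 851.5, 847.2, 857.0 and 786.6 at 0, 24, 48, 96 and 192 h, leaving 74.9% of the 0 h signal at 192 h, and the other left 74.5%. Array medians lay between 16.0 and 19.0. The 24 poly-A spike-in probe sets, RNAs added before labelling, differed from 0 h in mean log2 signal by 0.10, -0.45, -0.61 and -0.25 at 24, 48, 96 and 192 h. Of 12 sympathetic neuroblastoma markers listed, 10 were named on the array and 9 read above the signal minimum on average; tyrosine hydroxylase (TH) did not, with a mean signal of 10.0. Schwann cell markers (1 of 5 genes above the minimum), blood and endothelial markers (1 of 8) and epithelial markers (3 of 7) were dim, with summed signals of at most 59.3, 98.8 and 108.1 on any array.

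The 4 genes went opposite ways after induction. In the probe set that stood for each gene, STMN1 was 57.3% of its 0 h level at 192 h, while STMN3 was 1.58-fold, STMN2 4.29-fold and STMN4 8.02-fold their 0 h levels, all on the scale with the offset. The 0 h signals of STMN2 and STMN4 were under the signal minimum of 17.9, so their folds are not exact: with the offset divided by 4, then multiplied by 4, the log2 ratio of 192 h to 0 h was 3.41 and 2.12 for STMN4, and 2.41 and 1.42 for STMN2. The direction was negative at all 4 induced times for STMN1 and positive at all 4 for the other 3 genes. At least 2-fold higher than 0 h were 0 of the 4 genes at 24 h, against 0.678% of the 11944 tested genes. The count was 1 for 48 h against 1.08%, 2 for 96 h against 2.2%, and 2 for 192 h against 2.3%. These ratios share the 0 h array. The family was chosen with these values known, so the counts only describe it and the shares beside them are no test of it.

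**Figure D1:**
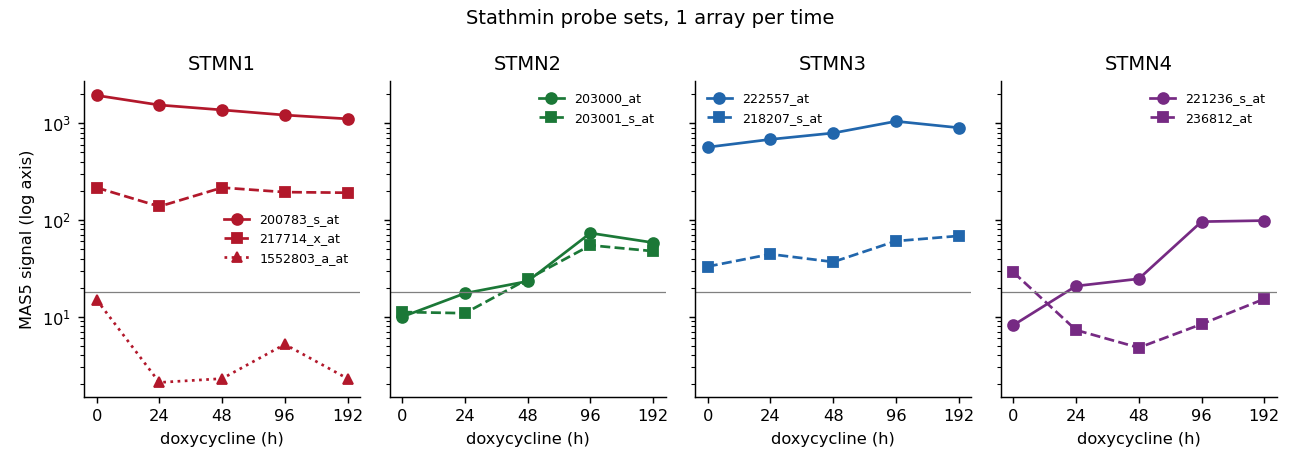
MAS5 signal (log axis) of the 9 stathmin probe sets against hours of doxycycline, 1 array per point, one panel per gene; the grey line is the minimum mean signal of 17.9. STMN1 200783_s_at declines from array to array while both STMN2 probe sets and STMN4 221236_s_at start under the line and end above it.

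STMN1, the member tied to dividing cells, declined from array to array. Its brightest probe set, 200783_s_at, gave signals of 1938.6, 1541.6, 1371.3, 1213.7 and 1109.4 at 0, 24, 48, 96 and 192 h. Each array was lower than the one before it, and the widest step was the first: the log2 change was -0.33 over the first 24 h and then -0.17, -0.18 and -0.13 over the later intervals. The fitted log2 change of STMN1, the slope of a straight line over the 5 time steps times 4, was -0.78 ± 0.13 (SE, 5 arrays).

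The other STMN1 probe sets did not share this course. The probe set 217714_x_at, annotated to both STMN1 and MIR3917 and of a type whose probes can also match other transcripts, read 216.1, 138.0, 216.1, 194.2 and 191.4 at 0, 24, 48, 96 and 192 h. It was lowest at 24 h and back at its 0 h value at 48 h, and its fitted log2 change was 0.05 ± 0.28. The third, 1552803_a_at, read 15.0 at 0 h and 2.1, 2.3, 5.2 and 2.3 afterwards, all under the signal minimum. It too was highest at 0 h, with a fitted log2 change of -0.98 ± 0.62 (SE). The decline of STMN1 over all 5 arrays therefore rests on 1 of its 3 probe sets.

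RefSeq lists 3 start sites for STMN1, and 250 bases upstream of a pair of them are shown because they hold matches to the motifs of factors named in this study or known from cycling cells. The motifs searched, on both strands, were the MEIS core TGACAG, the E-box CACGTG bound by MYC family proteins, the E2F core in its forms TTGGCGC, followed by TTCGCGC, followed by TTCCCGC, the CCAAT box, and the left RE1 part CAGCACC with the right RE1 part GGACAGC bound by the neuronal repressor REST. Capitals mark every match. The upstream stretch of the first start is on the minus strand at chr1:25906420-25906669 and that of the second at chr1:25906881-25907130, both in GRCh38.p14.
STMN1 start 1: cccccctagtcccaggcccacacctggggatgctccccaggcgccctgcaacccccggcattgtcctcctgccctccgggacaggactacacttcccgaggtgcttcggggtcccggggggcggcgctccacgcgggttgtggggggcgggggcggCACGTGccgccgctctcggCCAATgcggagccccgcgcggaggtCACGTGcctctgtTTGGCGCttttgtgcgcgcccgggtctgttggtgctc
STMN1 start 2: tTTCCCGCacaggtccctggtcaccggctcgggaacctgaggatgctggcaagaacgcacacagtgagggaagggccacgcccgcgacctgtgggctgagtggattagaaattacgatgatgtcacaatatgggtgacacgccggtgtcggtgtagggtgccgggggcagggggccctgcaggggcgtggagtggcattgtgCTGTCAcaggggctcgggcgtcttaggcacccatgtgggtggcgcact

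Counted from the start site to the first base of the match, start 1 held E-boxes at 94 and 50 bases, a CCAAT box at 75 bases and an E2F core, TTGGCGC, at 37 bases upstream. Start 2 held an E2F core, TTCCCGC, at 249 bases and a MEIS core on the opposite strand at 48 bases upstream. Start 3 held 0 matches to any of these motifs. Among 35116 RefSeq upstream stretches of the same length, 6.34% held the E-box, 9.32% an E2F core, 32.0% a CCAAT box, 13.0% the MEIS core, 6.16% the left RE1 part and 4.76% the right one. A match describes the letters and does not show that a factor binds there.

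STMN3 was higher after induction by a modest amount. Its brighter probe set, 222557_at, read 565.8, 681.1, 791.9, 1046.6 and 898.4 at 0, 24, 48, 96 and 192 h. All 4 induced arrays were above 0 h, with the highest at 96 h and a drop in log2 signal of -0.22 after it. The other probe set, 218207_s_at, read 33.1, 44.4, 36.9, 60.6 and 68.5, also above 0 h at every induced time but with its highest value at 192 h. Fitted log2 changes were 0.78 ± 0.17 for 222557_at, in the fit over genes, and 0.93 ± 0.29 for 218207_s_at (SE, 5 arrays each). In the fit over all probe sets, from which the latter came, the SE of 222557_at was 0.18. STMN3 is the other member with a start site in the RefSeq promoter table, and its 250 upstream bases (minus strand, chr20:63652767-63653016, GRCh38.p14) are shown beside those of STMN1 because the 2 genes moved in opposite directions.
STMN3: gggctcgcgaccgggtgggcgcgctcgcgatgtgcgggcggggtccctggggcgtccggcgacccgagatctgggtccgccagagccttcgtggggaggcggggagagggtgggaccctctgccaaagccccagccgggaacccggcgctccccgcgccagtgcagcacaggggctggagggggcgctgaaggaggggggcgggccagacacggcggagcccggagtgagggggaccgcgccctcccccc

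This stretch is all in lower case because it held 0 matches to the motifs searched, which says only that those letters are not in this window. G and C made up 78.0% of it, against a median of 58.0% over all 35116 stretches. For STMN1 they made up 73.2% of the stretch before start 1, 63.6% before start 2 and 76.0% before start 3.

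STMN2, the growth-associated member, was dim before induction and brighter late in the course. Its probe set 203000_at gave signals of 10.0, 17.5, 23.3, 73.3 and 58.4 at 0, 24, 48, 96 and 192 h. Its other probe set, 203001_s_at, read 11.2, 10.9, 24.5, 54.8 and 47.7. In both, the 96 and 192 h arrays stood above the 3 earlier ones, 96 h was the highest and 192 h somewhat lower. They differed at 24 h, where 203000_at was 1.51-fold its 0 h level and 203001_s_at 0.981-fold. Fitted log2 changes were 2.41 ± 0.44 for STMN2 through 203000_at, in the fit over genes, and 2.15 ± 0.49 for 203001_s_at (SE, 5 arrays each). In the fit over all probe sets, from which the latter came, the SE of 203000_at was also 0.49.

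STMN4 had the widest change of the family. Its probe set 221236_s_at read 8.2, 20.8, 24.7, 96.2 and 98.7 at 0, 24, 48, 96 and 192 h. The values formed a low start, a middle pair at 24 and 48 h and a high pair at 96 and 192 h, and the fitted log2 change was 3.20 ± 0.43 (SE, 5 arrays). The second STMN4 probe set, 236812_at, went the other way: its signals were 28.9, 7.3, 4.8, 8.4 and 15.3 in the same order. All 4 induced arrays were below 0 h, its mean signal of 12.9 was under the minimum, and its fitted log2 change of -0.55 ± 0.83 was smaller than its standard error. The STMN4 course is thus that of 1 of its 2 probe sets.

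In all, 7 of the 9 probe sets passed the minimum mean signal of 17.9. At 0 h both STMN2 probe sets and STMN4 221236_s_at were under it, so they passed through their late arrays. The gene-level probe sets of STMN1 and STMN3 were far above it on all 5 arrays. The STMN2 and STMN4 changes shrank when the offset was raised 4 times: the fitted log2 change was 1.68 for STMN2 and 2.31 for STMN4, in place of 2.41 and 3.20.

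The time trend was a limma fit over 11944 genes with a threshold at a Benjamini-Hochberg adjusted p of 0.05. It called 415 genes (3.47%), of which 241 rose (2.02% of those tested) and 174 fell (1.46%), and these shares stand as the background for the gene lists. The lists were chosen with earlier results of these data known, so the shares beside their counts are no test of them. The stathmin genes are not counted against this background, since the family was chosen with this fit known. The number of genes that rose and fell was 121 and 69 when the 0 h array was left out, 147 and 107 for the 96 h array, 143 and 97 for the 192 h array, and 118 and 112 with the spike-in level as a covariate. With that covariate the fitted log2 change of STMN3 was 0.53, in place of 0.78.

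**Figure D2:**
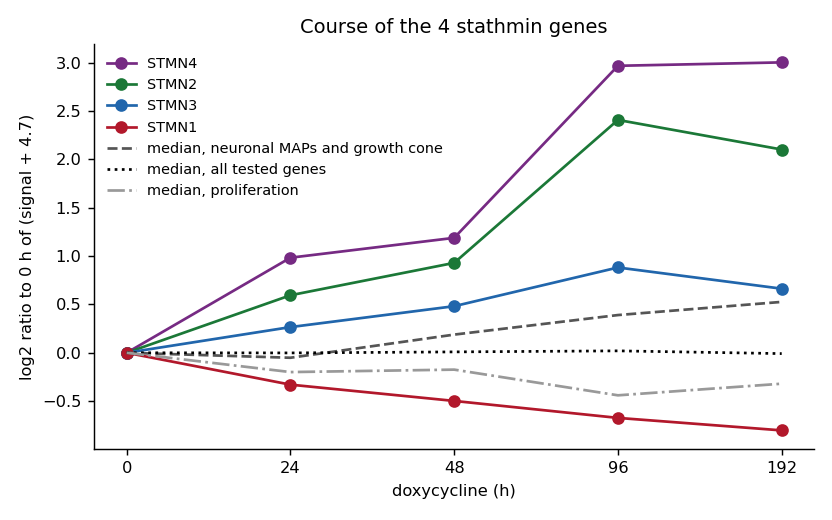
Log2 ratio to the 0 h array of (signal + 4.7) for the probe set standing for each stathmin gene, 1 array per point, with the median ratio of all 11944 tested genes and of the neuronal and proliferation lists. STMN4, STMN2 and STMN3 lie above 0 and STMN1 below it at each induced time, while the median of all genes stays within 0.02 of 0.

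The timing differed within the family. Most of the STMN2 and STMN4 change lay between 48 and 96 h, with log2 steps of 1.48 (203000_at) and 1.78 (221236_s_at) in that interval, against 0.59 and 0.98 over the first 24 h. From 96 to 192 h the step was -0.31 for STMN2 and 0.04 for STMN4. The interval from 48 to 96 h also held the widest step of both STMN3 probe sets, 0.40 and 0.65. The same held for the second STMN2 probe set, 1.03, but its step from 24 to 48 h was nearly as wide, 0.90. The interval from 48 to 96 h was a common one for the widest upward step. Of the 241 genes that rose, 125 (51.9%) had theirs there and 53 (22.0%) had theirs in the first 24 h. For STMN1 the widest step was the first, as it was for 26 of the 174 genes that fell (14.9%). The intervals are not of equal length, and each step compares 2 single arrays.

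**Figure D3:**
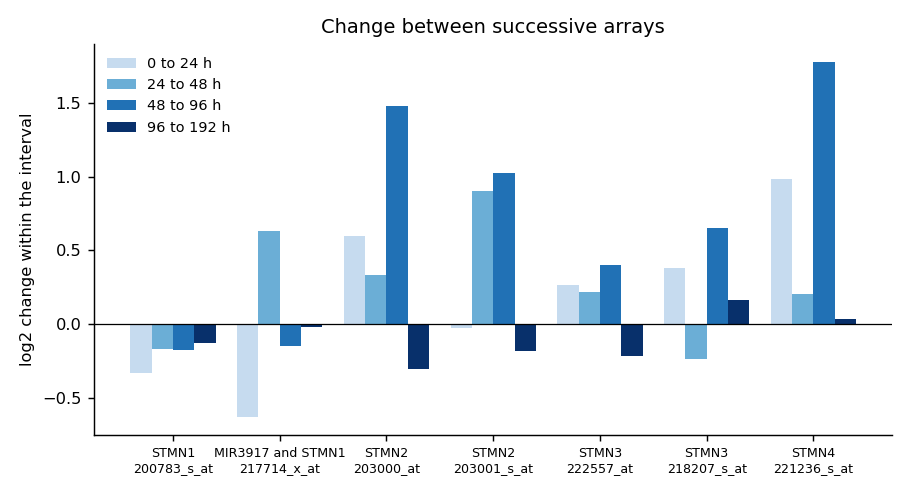
Log2 change of (signal + 4.7) within each interval between successive arrays, for the 7 stathmin probe sets that passed the signal minimum. The widest bars of STMN2, STMN3 and STMN4 stand at 48 to 96 h and that of STMN1 200783_s_at at 0 to 24 h.

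By their log2 ratios to 0 h, STMN2 and STMN4 had the closest courses in the family, with a root mean square difference of 0.58 over the 4 induced arrays, against 1.08 between STMN2 and STMN3 and 2.84 between STMN1 and STMN4. Outside the family, the 3 tested genes with the courses nearest to STMN1 were DDIAS (root mean square difference 0.02), GNPDA2 (0.06) and KIF23 (0.07), a mitotic kinesin needed for cytokinesis. Nearest to STMN3 were CDKN2D (0.03), an inhibitor of the cyclin D kinases, SLC25A25-AS1 (0.05) and UNC13A (0.05), a priming factor of synaptic vesicles. The nearest courses to STMN2 were less close: the long non-coding RNA MIAT (0.26), FAM30A (0.29) and DDC (0.31), which makes dopamine from L-DOPA. STMN4 had CNGB1 (0.44), the semaphorin co-receptor gene NRP1 (0.45) and ADCYAP1 (0.56), which encodes the neuropeptide PACAP. Likeness over 4 ratios was used only to name these genes. At 0 h CNGB1 read 1.8 and FAM30A 7.4, both under the signal minimum, so their ratios depend on the offset.

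A list of mainly neuronal cytoskeleton, growth cone and synapse genes rose in part alongside the neuronal stathmins. Of 27 tested genes of this list, 9 rose and 0 fell, against 2.02% and 1.46% of all tested genes. The median fitted log2 change was 0.55, against 0.003 over all genes. The list was chosen with earlier results of these data known, so these counts describe it and are no test of it. The intermediate filament gene PRPH rose, with signals of 599.3, 1092.8, 1528.7, 2306.7 and 2236.6 at 0, 24, 48, 96 and 192 h (fitted log2 change 1.94 ± 0.22 SE; limma adjusted p = 6.2e-04). The axonal motor gene KIF1A rose from 48 h on, with 145.3, 138.7, 176.3, 355.2 and 416.7 (1.72 ± 0.25; adjusted p = 0.00334). MAP6, which stabilises microtubules, rose (1.66 ± 0.32; adjusted p = 0.015), as did SNAP25 of the synaptic fusion complex (1.65 ± 0.23; adjusted p = 0.00265). The other 5 genes that rose were motor and intermediate filament genes, with fitted changes of 0.59 to 1.36. Apart from MAP6 and the motors, the genes of microtubule-associated proteins on the list did not pass.

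The neuronal list did not move as a whole. Doublecortin (DCX) had a fitted log2 change of 1.01 (limma adjusted p = 0.0589), and GAP43, another growth cone protein, one of 0.98 (adjusted p = 0.195), so neither passed. Of the 9 genes that rose, 6 had their widest step between 48 and 96 h. The number that rose was 5 without the 96 h array, and also 5 with the spike-in covariate and in a fit on hours. Of the 4 named, PRPH, KIF1A and SNAP25 passed without each array in turn, and MAP6 did not pass without the 0 h or the 192 h array or in the fit on hours. Without the signal minimum 0 genes of the list passed.

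Tubulins are the direct partners of stathmins, and 9 of those tested had a positive and 10 a negative fitted change. Of 19 tested tubulin and tubulin chaperone genes, 2 rose (10.5%, against 2.02% of all genes) and 1 fell (5.26%, against 1.46%), with a median fitted log2 change of -0.06. The beta-tubulin genes TUBB2B (0.98 ± 0.17; limma adjusted p = 0.00799) and TUBB2A (0.59 ± 0.14; adjusted p = 0.037) rose, and TUBB6 fell (-1.24 ± 0.30; adjusted p = 0.0428). TUBB2A and TUBB2B are near-identical copies, so their probe sets may share signal. Without the 192 h array none of these 3 calls held, and the TUBB2A call was also lost without the 0, 24 or 96 h array and that of TUBB6 without the 24 or 96 h array. The TUBB2A call was lost with the spike-in covariate too, and the TUBB6 call with quantile normalization or with all its probe sets averaged. TUBA4A (-0.63; adjusted p = 0.0931) and TUBG2 (0.43; adjusted p = 0.36) did not pass. Of 18 tested genes whose products depolymerise, sever or track microtubules, 0 passed by limma in either direction, against 3.47% of all genes (median 0.003). The widest fitted changes among them were -0.41 for KIF18B and 0.39 for MAPRE3.

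Of 18 tested kinases and phosphatases reported to act on stathmins, 1 rose and 1 fell (5.56% each way, against 2.02% and 1.46% of all genes; median fitted log2 change -0.06). MAPK10, a JNK kinase of neurons, rose, with signals of 96.8, 127.9, 134.8, 181.0 and 187.8 at 0, 24, 48, 96 and 192 h (0.93 ± 0.19; limma adjusted p = 0.0201). CDK2, a kinase of the G1/S transition, fell, with 451.5, 403.4, 330.1, 286.0 and 250.3 (-0.87 ± 0.14; adjusted p = 0.00598). Both calls were lost without the 0 h array, and that of MAPK10 also without the 96 h or the 192 h array, on hours, with averaged probe sets and with the spike-in covariate. AURKB and CAMK2D each had a fitted change of -0.55 without passing (adjusted p = 0.0885 and 0.136). Of 11 tested palmitoyltransferases and thioesterases 0 passed, against 3.47% of all genes, with a median of 0.02. The widest fitted changes among them were -0.33 for LYPLA1 and -0.26 for ZDHHC5.

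Further lists held genes that act on neuronal transcription and transcripts. Of 11 tested genes of the REST corepressor complex 0 passed, with a median fitted log2 change of -0.09. Among all tested genes 3.47% passed, so a count of 0 in a list this short is not read as a result. REST itself, which silences neuronal genes outside neurons, read 296.1, 298.9, 216.7, 163.0 and 212.4 at 0, 24, 48, 96 and 192 h. It was lower on the 3 later arrays, with a fitted log2 change of -0.72 ± 0.22 (limma adjusted p = 0.111), and SIN3B had 0.34 (adjusted p = 0.581). Of 10 tested neuronal RNA processing genes 1 rose and 0 fell (against 2.02% and 1.46% of all genes; median -0.14): RBFOX3, a splicing factor of mature neurons, rose (1.10 ± 0.17; adjusted p = 0.0043), and RBFOX2 had -0.33 and NOVA2 -0.29. TARDBP, the RNA-binding protein that keeps the STMN2 transcript from being cut short, named here for that role after its values were seen, had a fitted change of -0.03 ± 0.13 and signals between 1238.9 and 1307.5.

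**Figure D4:**
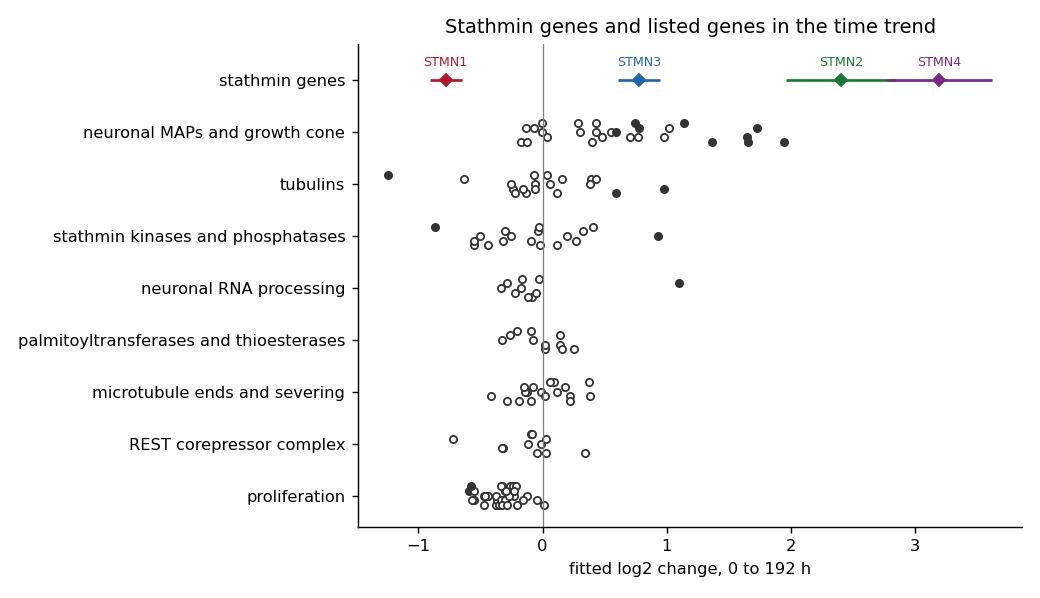
Fitted log2 change over 0 to 192 h for the 4 stathmin genes (diamonds, bars are SE) and for each tested gene of 8 lists (circles, filled where the limma adjusted p was under 0.05; vertical scatter within a row only separates points). At this offset STMN2 and STMN4 lie to the right of every listed gene (with an offset 4 times larger STMN2 was at 1.68), and STMN1 lies left of all 38 proliferation genes.

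Genes of S phase and mitosis, the setting in which STMN1 is best known, mostly had a negative fitted change, and few passed. Of 38 tested proliferation genes 2 fell (5.26%, against 1.46% of all genes) and 0 rose (2.02% of all genes). In this list 37 had a negative fitted change (6005 of all 11944 genes had a positive one), and the median was -0.32. The 2 that fell were BUB1 of the spindle checkpoint (-0.59 ± 0.15; limma adjusted p = 0.0498) and thymidine kinase TK1 (-0.58 ± 0.13; adjusted p = 0.0352), while PLK1 (-0.57) and HMMR (-0.56) did not pass. The number that fell was 0 when the 0 h or the 96 h array was left out, 1 when the 24 h or the 48 h array was, and 4 when the 192 h array was. The log2 ratio of STMN1 to 0 h was -0.33, -0.50, -0.67 and -0.80 at 24, 48, 96 and 192 h, against medians of -0.20, -0.17, -0.44 and -0.32 for the proliferation list. Through its brightest probe set, STMN1 was thus below the list's median at each time. STMN1 was still declining at 192 h, when the list's median was closer to 0 than at 96 h. Single genes of the list differed from its median. BUB1 (413.3 and 393.8 at 96 and 192 h) and TK1 (556 and 503.5) were also lower at 192 h than at 96 h. PLK1 (316.7 and 461.8) and HMMR (562.4 and 679.8) were higher. Relative to 0 h, PLK1 was below STMN1 at 24, 48 and 96 h and above it at 192 h. Other genes of the list were also below STMN1 at 24, 48 or 96 h, among them HMMR at 96 h. CDK1 and AURKB stand in both the proliferation and the kinase list.

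Of 6 tested fibroblast markers 2 fell (33.3%, against 1.46% of all genes) and 0 rose (2.02% of all genes) over the same arrays. The summed signal of 8 fibroblast markers was 1216.5, 1139.1, 969.0, 574.0 and 393.6 at 0, 24, 48, 96 and 192 h. Most of that sum came from COL1A1 (115.1 at 192 h against 584.4 at 0 h) and PDGFRA (131.6 at 192 h against 457.3 at 0 h). PDGFRA (-1.85 ± 0.18; limma adjusted p = 2.8e-04) and COL1A1 (-2.31 ± 0.31; adjusted p = 0.00251) fell. The other 4 tested did not pass, with fitted changes of 0.18 for COL1A2, -0.04 for THY1, -0.49 for COL3A1 and -0.50 for PDGFRB, and the defining markers DCN and LUM were under it, with mean signals of 14.7 and 9.68. Sympathetic neuroblastoma markers summed to between 9869.2 and 13130.0, the highest at 96 h, and 3 of 9 tested rose (33.3%, against 2.02% of all genes). They were GATA2 (fitted log2 change 1.62), CHGB (1.32) and CHGA (1.04), while HAND2 (0.997) and ISL1 (0.753) did not pass. The number that rose was 1 with the spike-in covariate and 0 without the signal minimum. The part of either marker list in the stathmin changes was not tested. In bulk RNA, fewer cells of a type and less RNA per cell cannot be told apart.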

How the data were processed

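Per the submitters' processing notes, the arrays were processed with MAS5 and GCOS, versions not given. The authors' deposited log2 values were taken as MAS5 signals on a log scale, since 100% of them, once raised back, fell on steps of 0.1 (tolerance 0.01), with a floor at a signal of 1, and each array's mean trimmed by 2% at each end was 100.02 to 100.03. No further scaling was applied. The log step, the floor and the scaling target were read from the values.

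An offset of 4.7 (the lower quartile of signals, taken as its median over arrays) was added and log2 taken. GEO's platform annotation named 1 gene for 41091 probe sets, and 41043 were found in the RefSeq table of GRCh38.p14. The 62 control probe sets were left out. A mean signal of 17.9, the median over all probe sets and arrays, was the minimum, and the brightest remaining probe set stood for its gene, leaving 11944 of 19775 genes. Fitted changes and SEs of the probe sets standing for the stathmin genes came from the fit over these genes. Those of the other stathmin probe sets came from the same fit over all probe sets without that minimum, so SEs differ between the fits.

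The time trend was a limma 3.58.1 fit (R 4.3.3) of log2 signal on the time step, moderated by eBayes with a mean-variance trend, with residual degrees of freedom of 3 and prior ones of 9.07. Its two-sided p-values were adjusted by Benjamini-Hochberg over all genes. The slope was multiplied by the 4 steps to give the fitted change. The p-values rest on how far 5 arrays, 1 per time, scatter around a line, so their number limits the precision. The fit was tested on simulated data. The members and gene lists were chosen with earlier results of these data known. Named from each list were up to 4 genes past the threshold in each direction and up to 2 others, by size of fitted change, and the 3 nearest courses to each stathmin gene. Motifs were searched after the upstream sequences had been seen. Sequences are from RefSeq, and 2 of the 4 stathmin genes matched an entry. Alternatives changed the offset, scaling, signal minimum, time scale, probe sets per gene, spike-in covariate and the arrays used.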

Additional observations from a re-analysis of the deposited data

How the results depend on the processing

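All 4 stathmin genes kept the sign of their fitted log2 change in every alternative in which they were tested. There were 14 for STMN1 and STMN3, and 13 for STMN2 and STMN4, which were too dim for the minimum signal 4 times higher. Not every alternative could change the sign. Leaving out the 48 h array, the middle step, or changing the signal minimum leaves a gene's own slope as it was. For STMN1 and STMN4 the averaging took in only the gene-level probe set. It left out 217714_x_at and 236812_at, whose fitted changes were 0.05 and -0.55. Leaving out each array in turn gave -0.88 to -0.64 for STMN1, 2.06 to 3.02 for STMN2, 0.64 to 1.14 for STMN3 and 2.89 to 3.64 for STMN4. With an offset 4 times larger the fitted change was 1.68 for STMN2 and 2.31 for STMN4, and their log2 ratios of 192 h to 0 h were 1.42 and 2.12. With an offset 4 times smaller that ratio was 3.41 for STMN4. With the spike-in covariate the fitted change of STMN3 was 0.53.

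Over all genes 241 rose and 174 fell. Without the signal minimum, when 19775 genes were tested, 16 rose and 5 fell. With the spike-in covariate 118 rose and 112 fell, and leaving out each array gave 121 to 249 and 69 to 167. In the neuronal list, where 9 rose, 0 rose without the minimum, 5 on hours, 5 with the spike-in covariate and 5 to 9 without each array. In the proliferation list, where 2 fell, 1 fell with the smaller offset, 1 with quantile normalization, 0 without the minimum, 0 on hours, 0 with all probe sets of a gene averaged, 0 with the spike-in covariate, and 0 to 4 without each array. The cause was not tested. No paired analysis was possible because each time point has 1 array. The number of arrays and the dimness of STMN2 and STMN4 at 0 h limit the precision.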
